A study of Pan troglodytes with 8 samples.

Results

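Long intergenic noncoding RNAs named LINC and a number were taken from the count table that the study made on the chimpanzee genome. The RNAs were chosen by their level: one was kept when its mean was at least 10 CPM, a count scaled to library size, in 1 or more of the 4 sorted cell populations. That left 95 RNAs of 2104 LINC rows, in a table of 60583 named rows. CPM is a row's count divided by the summed counts of all named rows in that library, times 1000000. It is not divided by transcript length, so levels are compared between libraries for 1 RNA and not between RNAs.

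All 8 libraries came from cerebral organoids of SandraA, a single chimpanzee induced pluripotent stem cell line, at week 8 of culture within 3 days either side. Cells were separated by fluorescence-activated sorting into N (neurons positive for BCL11B), bIP (intermediate progenitors of the basal kind), bRG (basal radial glia) and aRG (apical radial glia), with 2 libraries each. RNA of 10000 cells per library was primed at the poly(A) tail and amplified. No genetic change or drug distinguishes the populations. Nothing in the labels ties the 2 libraries of a population to separate cultures, so the spread behind each p-value is that between these libraries and may be technical.

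A LINC symbol is a placeholder that annotators give to a long transcript that lies between protein-coding genes, has no convincing reading frame and has no known function to name it by. Many are spliced and polyadenylated like messenger RNAs, and some carry a microRNA in their transcript, lie beside a developmental transcription factor gene or give rise to a circular RNA. In the developing cortex, radial glia divide to renew themselves and to produce intermediate progenitors and neurons, and long noncoding RNAs are known for expression that is narrower across cell types than that of coding genes. Roles given here for single RNAs come from human work, and for most of the 95 no role is given.

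The marker transcripts chosen followed the labels of N and bIP, and those of radial glia were high in both bRG and aRG. No list was of aRG alone. The summed level of 4 intermediate progenitor markers was 1801 and 2318 CPM in bIP, against 61.2 to 342 CPM in the other 6 libraries, and that of 4 deep-layer neuron markers was 3247 and 3030 CPM in N. The 4 radial glia markers summed to 1948 and 1542 CPM in bRG and to 2766 and 2575 CPM in aRG, against 84.7 and 48.9 CPM in N and 383 and 359 CPM in bIP. None of 5 markers of basal radial glia passed the test between bRG and aRG. Choroid plexus markers, 6 of 6 detected, summed to 977 and 3328 CPM in aRG, against 33.8 to 82.6 CPM elsewhere. TTR alone gave 844 and 3155 CPM of the aRG sums. TRPM3, CLIC6, HTR2C and FOLR1 were also higher in both aRG libraries than in any other. KCNJ13 was not, at means of 7.51 CPM in N, 7.28 CPM in bIP, 9.18 CPM in bRG and 10.9 CPM in aRG. Markers of mesenchyme, vessels and immune cells summed to 35.6 and 15.2 CPM in N, 130 and 137 CPM in bIP, 288 and 341 CPM in bRG, and 373 and 1765 CPM in aRG, with 1 of the 8 (AIF1, of microglia) at 0 throughout. Library totals were 24649971 to 33245892 counts.

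The threshold fell in a continuous range. Just inside it, the highest population means were 10.1 CPM for LINC01833, 10.2 CPM for LINC00621 and 10.3 CPM for LINC00894. Just outside it were LINC01772 at 9.92 CPM, LINC00242 at 9.90 CPM and LINC01004 at 9.76 CPM. At 5 CPM the same rule would have kept 196 RNAs and at 20 CPM 54. Most LINC rows were far below it, since 932 of the 2104 reached 1 CPM in a population and 119 had no count in any library. The 95 are 4.52% of LINC rows, and 21.0% of the other named rows reached 10 CPM in a population.

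The 95 RNAs together took a similar share of counts in each population. They summed to 5769 and 7154 CPM in N, 6079 and 6787 CPM in bIP, 5620 and 5870 CPM in bRG, and 5769 and 5621 CPM in aRG. The libraries of N and bIP numbered 2 were the highest and the other 6 lay close together. The rest of the LINC rows was thinner in neurons: 1504 and 1524 LINC rows had at least 1 count in N, against 1698 and 1739 in bIP, 1781 and 1797 in bRG, and 1722 and 1642 in aRG. The 95 held 85.4% and 83.4% of all LINC counts in N and 73.9% to 78.5% in the other 6 libraries. LINC00632 and LINC00461 gave 41.4% to 51.7% of the counts of the 95.

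**Figure D1:**
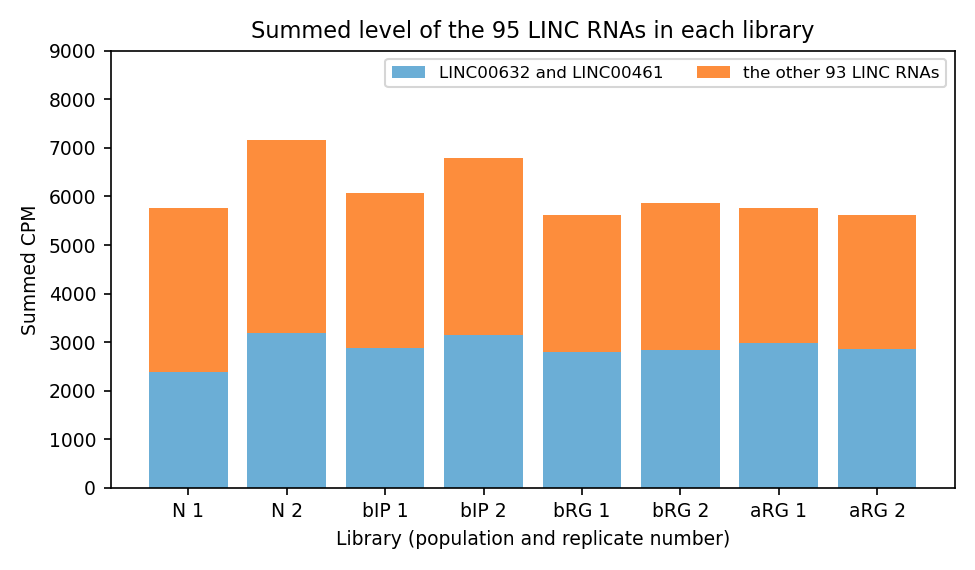
Summed CPM of the 95 LINC RNAs (vertical axis) in each of the 8 libraries (horizontal axis, population and replicate number). The lower bar segment is LINC00632 plus LINC00461 and the upper segment the other 93 RNAs. The sums run from 5620 CPM in the first bRG library to 7154 CPM in the second N library.

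How widely the RNAs were spread differed among them. Of the 95, 40 reached 10 CPM in all 4 populations, 14 in 3, 15 in 2 and 26 in 1. By population, 59 reached it in N, 72 in bIP, 67 in bRG and 60 in aRG. The highest mean lay in N for 31 RNAs (32.6%), in bIP for 28 (29.5%), and in bRG and aRG for 18 each (18.9%). Of all 12355 rows that reach 10 CPM in a population, 29.6% were highest in N, 18.4% in bIP, 20.6% in bRG and 31.5% in aRG. Which population is highest was not tested as such, and bulk libraries cannot tell more RNA per cell apart from more cells of a type that carries it.

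LINC00632, in human the host transcript of the circular RNA antisense to CDR1, an RNA known for binding microRNA miR-7 in neurons, was present in every library. It stood at 1211 and 2213 CPM in N, 1398 and 1652 CPM in bIP, 1778 and 1909 CPM in bRG, and 1827 and 1923 CPM in aRG. The N libraries lay on either side of all the others, so N overlapped each other population. The bRG and aRG libraries overlapped one another, and both bIP libraries lay below them. The log2 fold change of LINC00632 in N over aRG was 0.07 (SE 0.26, edgeR quasi-likelihood test, Benjamini-Hochberg adjusted p = 0.924), and no other pair passed the threshold of 0.05. The counts do not separate linear from circular forms, and priming at the poly(A) tail selects against circles.

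LINC00461, the transcript that carries miR-9-2 in human, a microRNA of neural progenitors, was highest in intermediate progenitors. Its level was 1178 and 970 CPM in N, 1486 and 1496 CPM in bIP, 1024 and 939 CPM in bRG, and 1157 and 931 CPM in aRG. Both bIP libraries lay above the other 6, which overlapped one another. The log2 fold change in bIP over aRG was 0.54 (SE 0.23, edgeR adjusted p = 0.342) and in bIP over bRG 0.70 (SE 0.23, adjusted p = 0.274), so neither passed. Its human neighbour MEF2C, a transcription factor gene, stood at 53.6 and 60.6 CPM in N, 38.2 and 23.1 CPM in bIP, 133 and 61.3 CPM in bRG, and 90.4 and 34.4 CPM in aRG, and no pair of populations passed the test for it.

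LINC00599, which carries miR-124-1 in human, the microRNA most typical of neurons, was highest in neurons and lowest in apical radial glia. It stood at 747 and 963 CPM in N, 362 and 432 CPM in bIP, 66.0 and 170 CPM in bRG, and 27.9 and 51.3 CPM in aRG. The 4 populations did not overlap and their levels ran in the order N, bIP, bRG, aRG. The log2 fold change was 4.64 in N over aRG (SE 0.46, edgeR adjusted p = 5.86e-05), 3.16 in N over bRG (SE 0.43, adjusted p = 0.00101) and 3.34 in bIP over aRG (SE 0.43, adjusted p = 0.00158). The neighbouring steps did not pass: 1.30 in N over bIP (adjusted p = 0.123), 1.86 in bIP over bRG (0.0553) and 1.49 in bRG over aRG (0.763). MicroRNAs themselves were not measured.

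The other transcripts that carry the same microRNAs had patterns of their own. MIR124-2HG, the host of miR-124-2, was at 81.7 and 88.0 CPM in N, 108 and 140 CPM in bIP, 42.1 and 56.5 CPM in bRG, and 34.8 and 44.0 CPM in aRG. Its highest level was in bIP, with log2 fold changes of 1.32 in N over aRG (SE 0.27, edgeR adjusted p = 0.00846) and 1.67 in bIP over aRG (SE 0.28, adjusted p = 0.00653). MIR9-3HG, the host of miR-9-3, was at 83.4 and 58.0 CPM in N, 357 and 445 CPM in bIP, 282 and 337 CPM in bRG, and 329 and 401 CPM in aRG. It fell by 2.14 on the log2 scale in N over aRG (SE 0.28, adjusted p = 0.000408), where LINC00461 was at 0.26 (SE 0.23, adjusted p = 0.581).

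LINC01551 was among the most even of the RNAs. It stood at 350 and 228 CPM in N, 292 and 284 CPM in bIP, 274 and 219 CPM in bRG, and 336 and 254 CPM in aRG. N and aRG each overlapped every other population, while both bIP libraries lay above both bRG libraries. The log2 fold change was 0.20 in N over aRG (SE 0.29, edgeR adjusted p = 0.754) and 0.32 in bIP over bRG (SE 0.29, adjusted p = 0.903).

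LINC01578, known in human as CHASERR and lying beside the chromatin remodeller gene CHD2, which it restrains, had its lowest values in neurons. It stood at 132 and 92.0 CPM in N, 183 and 181 CPM in bIP, 212 and 159 CPM in bRG, and 222 and 199 CPM in aRG. Both N libraries lay below the other 6, and the change in N over aRG was −0.68 on the log2 scale (SE 0.28, edgeR adjusted p = 0.166), which did not pass. CHD2 was at 372 and 263 CPM in N, 444 and 356 CPM in bIP, 531 and 338 CPM in bRG, and 493 and 356 CPM in aRG, with a change of −0.19 in N over aRG (SE 0.31, adjusted p = 0.789). The labels name no step that marks strand, so reads of an RNA and of a gene that overlaps it on the other strand cannot be told apart.

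**Figure D2:**
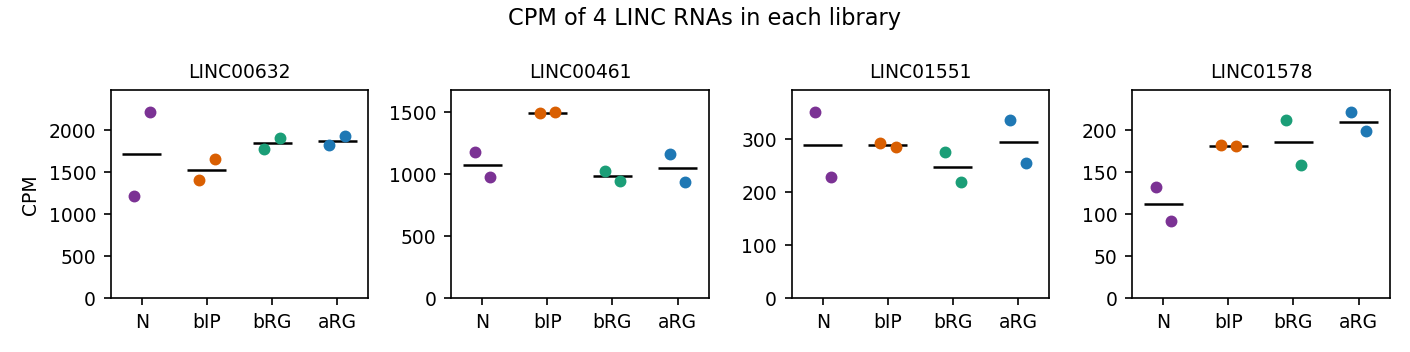
CPM (vertical axis, from 0) of LINC00632, LINC00461, LINC01551 and LINC01578 in each library, by population. Points are libraries and bars the mean of 2. The 2 N libraries of LINC00632, at 1211 and 2213 CPM, stand on either side of all other libraries, and the bIP libraries of LINC00461 stand above the rest.

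Differences between populations were tested for every row together, with a threshold of 0.05 on the adjusted p. An RNA that entered the list through 1 population had to be lower in others, so counts over all 95 describe the list and are not read as evidence. The same rule, a mean of at least 10 CPM in a population, took 12355 of the 35382 rows tested. In N over aRG 28 of the 95 passed (29.5%), beside 23.4% of these 12355 and 9.67% of all rows. In N over bRG 23 passed (24.2%), beside 15.4% and 6.01%, and in N over bIP 19 (20%), beside 6.65% and 2.54%. In bIP over aRG 10 passed (10.5%), beside 7.7% and 2.83%, and in bIP over bRG 6 (6.32%), beside 2.9% and 1.03%. In bRG over aRG none passed, beside 0.00809% and 0.00283%. A test across all 4 populations passed for 30 of the 95 (31.6%), beside 19.9% and 7.62%. The median log2 fold change in N over aRG was 0.30 for the 95 and 0.11 for the 12355.

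A mean of at least 10 CPM over all 8 libraries was reached by 65 of the 95 RNAs. It is taken without regard to population, but a single high population can carry it. Of the 65, 40 reached 10 CPM in all 4 populations and 3 in 1 only, LINC02607 in N and LINC02487 and LINC02538 in bIP. In N over aRG 21 of the 65 passed (32.3%), beside 22.5% of the 11198 rows with such a mean: 14 were higher, where 12.3% of those rows were, and 7 lower, where 10.3% were. In N over bRG 18 passed (27.7%), beside 15.3%, with 11 higher (7.61% of rows) and 7 lower (7.69%). In N over bIP 12 passed (18.5%), beside 6.55%, with 4 higher (2.89%) and 8 lower (3.66%). Against radial glia more of the 65 were higher than lower in N, and against bIP more were lower than higher. In bIP over aRG 9 passed (13.8%), beside 7.89%, with 6 higher (3.69%) and 3 lower (4.21%). In bIP over bRG 6 passed (9.23%), beside 3.09%, with 4 higher (1.35%) and 2 lower (1.74%). In bRG over aRG none of the 65 passed, beside 0.00893%, and the test across all populations passed for 22 (33.8%), beside 19.3%. The highest population mean was a median of 2.29 times the lowest in the 65 and of 1.66 times in the 11198. Without the 3 that reached 10 CPM in 1 population only, 62 RNAs remained. They were set beside the 11094 rows with such a mean and 10 CPM in at least 2 populations. A single population could still carry the mean over 8 libraries of an RNA among them. LINC01378 had population means of 105 CPM in N, 5.20 CPM in bIP, 18.1 CPM in bRG and 3.96 CPM in aRG. Of these 62, 20 passed in N over aRG (32.3%, beside 22.2%), 17 in N over bRG (27.4%, beside 15.2%), 9 in N over bIP (14.5%, beside 6.27%), 7 in bIP over aRG (11.3%, beside 7.86%), 4 in bIP over bRG (6.45%, beside 3.05%) and 19 across all populations (30.6%, beside 18.9%). These shares are descriptions, and whether the 65 or the 62 differ from other rows was not tested.

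**Figure D3:**
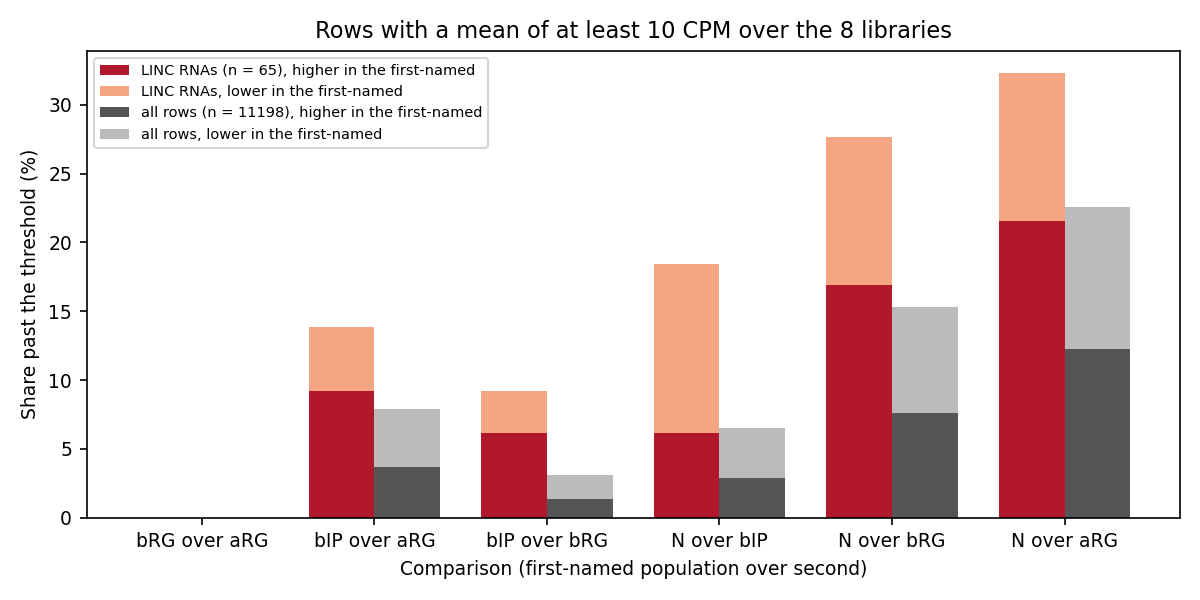
Share of rows past the threshold (vertical axis, percent) in each comparison (horizontal axis), for the 65 LINC RNAs with a mean of at least 10 CPM over 8 libraries (red) and all 11198 rows with such a mean (grey). Dark segments are rows higher in the first-named population and light segments rows lower in it. The shares run from 0 in bRG over aRG to 32.3% of the LINC RNAs in N over aRG.

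One group of RNAs was high in neurons. Both N libraries lay above all 6 others in 15 of the 65 (23.1% of them), where 13.1% of the 11198 rows had that pattern. LINC00599 is one of them. In N over aRG, 14 of the 65 were higher, and LINC01378, LINC00599, LINC01621, LINC02607 and LINC02263 had the largest fold changes.

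LINC01378 stood at 119 and 91.6 CPM in N, 7.61 and 2.79 CPM in bIP, 9.83 and 26.3 CPM in bRG, and 3.61 and 4.30 CPM in aRG. Neurons stood alone, and the second bRG library was next. On the log2 scale the fold change was 4.95 in N over aRG (SE 0.58, edgeR adjusted p = 0.000188), 4.53 in N over bIP (SE 0.57, adjusted p = 0.0016) and 2.85 in N over bRG (SE 0.52, adjusted p = 0.00654).

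LINC02607 stood at 69.4 and 68.3 CPM in N, 6.06 and 5.87 CPM in bIP, 5.73 and 14.0 CPM in bRG, and 2.19 and 8.30 CPM in aRG. The N libraries nearly coincided, and the 3 progenitor populations overlapped one another. It reached 10 CPM in N only, so its fold changes are given as a description and no test of them is read. They were 3.92 on the log2 scale in N over aRG (SE 0.60), 3.72 in N over bIP (SE 0.60) and 3.11 in N over bRG (SE 0.58). Unlike LINC00599, neither LINC01378 nor LINC02607 had a bIP library above its highest radial glia library.

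LINC01122 stood at 74.5 and 123 CPM in N, 32.8 and 46.2 CPM in bIP, 12.1 and 25.2 CPM in bRG, and 12.5 and 19.2 CPM in aRG. It was intermediate in bIP, and bRG and aRG overlapped. It was higher by 2.84 log2 units in N over aRG (SE 0.41, edgeR adjusted p = 0.000737) and 2.70 in N over bRG (SE 0.41, adjusted p = 0.00205), while 1.51 in N over bIP (adjusted p = 0.0671) did not pass.

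LINC00643 stood at 41.8 and 81.6 CPM in N, 12.1 and 15.2 CPM in bIP, 18.9 and 29.7 CPM in bRG, and 17.9 and 19.6 CPM in aRG. Its bIP libraries were the lowest, although bIP over aRG at −0.44 (edgeR adjusted p = 0.716) did not pass. It changed by 2.36 in N over bIP (SE 0.38, edgeR adjusted p = 0.00631) and by 1.92 in N over aRG (SE 0.37, adjusted p = 0.00533). LINC02263 stood at 26.2 and 57.3 CPM in N, 5.87 and 10.4 CPM in bIP, 5.52 and 16.2 CPM in bRG, and 2.31 and 5.38 CPM in aRG. Its change was 3.63 in N over aRG (SE 0.63, adjusted p = 0.00269) and 2.54 in N over bIP (SE 0.60, adjusted p = 0.047). The second of these was at 0.230 without the second N library and at 0.173 and 0.0908 without the first and the second bIP library (range over 16 alternatives 1.63e-06 to 0.230).

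LINC01621 stood at 33.9 and 16.9 CPM in N, 11.9 and 12.2 CPM in bIP, 0.243 and 2.98 CPM in bRG, and 0.974 and 2.38 CPM in aRG. It was shared by N and bIP and nearly missing from radial glia, with log2 fold changes of 4.14 in N over aRG (SE 0.88, edgeR adjusted p = 0.00965) and 4.30 in N over bRG (SE 0.89, adjusted p = 0.013). Without the first aRG library the adjusted p in N over aRG was 0.0559, and it ran from 3.15e-11 to 0.0559 over 16 alternative fits. LINC01322, LINC02600, LINC01315, LINC00205, LINC01503 and LINC00342 were also higher in N over aRG, by 1.43 to 3.39 on the log2 scale.

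Among RNAs outside the 65, LINC02575 was at 10.8 and 9.91 CPM in N and at 0.690 to 3.15 CPM in the other 6 libraries. LINC00930 was at 15.7 and 20.9 CPM in N and at 4.45 to 7.64 CPM elsewhere. Both owe their place in the list to neurons, so their levels are given as a description.

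A second group was high in intermediate progenitors. Both bIP libraries lay above all 6 others in 10 of the 65 (15.4%), where 5.83% of the 11198 rows had that pattern. In bIP over aRG, LINC00599, LINC02609, LINC01748 and LINC00595 were higher. LINC02487 and LINC02538, the other 2 counted above, reached 10 CPM in bIP only.

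LINC01748 stood at 63.1 and 49.9 CPM in N, 111 and 139 CPM in bIP, 26.0 and 27.8 CPM in bRG, and 22.9 and 17.7 CPM in aRG. The 4 populations did not overlap, with N second. LINC01748 changed by 2.64 log2 units in bIP over aRG (SE 0.30, edgeR adjusted p = 0.000694), 2.32 in bIP over bRG (SE 0.29, adjusted p = 0.00561) and 1.70 in N over aRG (SE 0.29, adjusted p = 0.00214), while N over bIP at −0.94 (adjusted p = 0.112) did not pass.

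LINC02609 stood at 13.1 and 12.3 CPM in N, 33.3 and 51.2 CPM in bIP, 3.40 and 6.41 CPM in bRG, and 8.15 and 4.45 CPM in aRG. It had the same order, bIP then N, above overlapping radial glia. LINC02609 changed by 2.76 log2 units in bIP over aRG (SE 0.46, edgeR adjusted p = 0.00663) and 3.21 in bIP over bRG (SE 0.47, adjusted p = 0.00883).

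LINC00595 differed from both in neurons, where it was nearly missing. It stood at 3.00 and 2.05 CPM in N, 42.8 and 58.6 CPM in bIP, 21.4 and 13.4 CPM in bRG, and 18.4 and 12.3 CPM in aRG. It fell by 4.11 on the log2 scale in N over bIP (SE 0.44, edgeR adjusted p = 0.000636) and was higher by 1.74 in bIP over aRG (SE 0.40, adjusted p = 0.0357).

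LINC02487 stood at 8.34 and 2.76 CPM in N, 48.0 and 190 CPM in bIP, 0.937 and 8.21 CPM in bRG, and 2.52 and 8.57 CPM in aRG. LINC02538 stood at 0.989 and 3.04 CPM in N, 20.4 and 78.9 CPM in bIP, 2.88 and 5.82 CPM in bRG, and 1.66 and 4.75 CPM in aRG. Both were lower in all 6 other libraries than in either bIP library, and in both the second bIP library was about as far above the first: the ratio of LINC02487 to LINC02538 counts was 2.36 and 2.41 in bIP. As bIP alone put them on the list, their fold changes are a description and no test of them is read.

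On the log2 scale LINC02487 had a fold change of 4.42 in bIP over aRG (SE 0.99) and LINC02538 one of 3.94 (SE 0.77). Without the second bIP library these values were 3.14 and 2.70. In N over bIP the fold changes were −4.18 for LINC02487 and −4.44 for LINC02538, and without that library −2.91 and −3.19.

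LINC01089 and LINC02064 were also highest in both bIP libraries without passing. LINC01089 stood at 180 and 231 CPM in N, 265 and 276 CPM in bIP, 107 and 156 CPM in bRG, and 84.9 and 161 CPM in aRG, with a log2 fold change of 1.15 in bIP over aRG (SE 0.32, edgeR adjusted p = 0.0846). LINC02064 stood at 112 and 130 CPM in N, 157 and 161 CPM in bIP, 106 and 116 CPM in bRG, and 104 and 106 CPM in aRG, with a change of 0.63 (SE 0.23, adjusted p = 0.234). Of RNAs outside the 65, LINC02084 was at 11.4 and 9.75 CPM in bIP and at 0 to 2.56 CPM elsewhere, and LINC02615 at 16.9 and 24.2 CPM in bIP and at 4.45 to 6.67 CPM elsewhere.

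**Figure D4:**
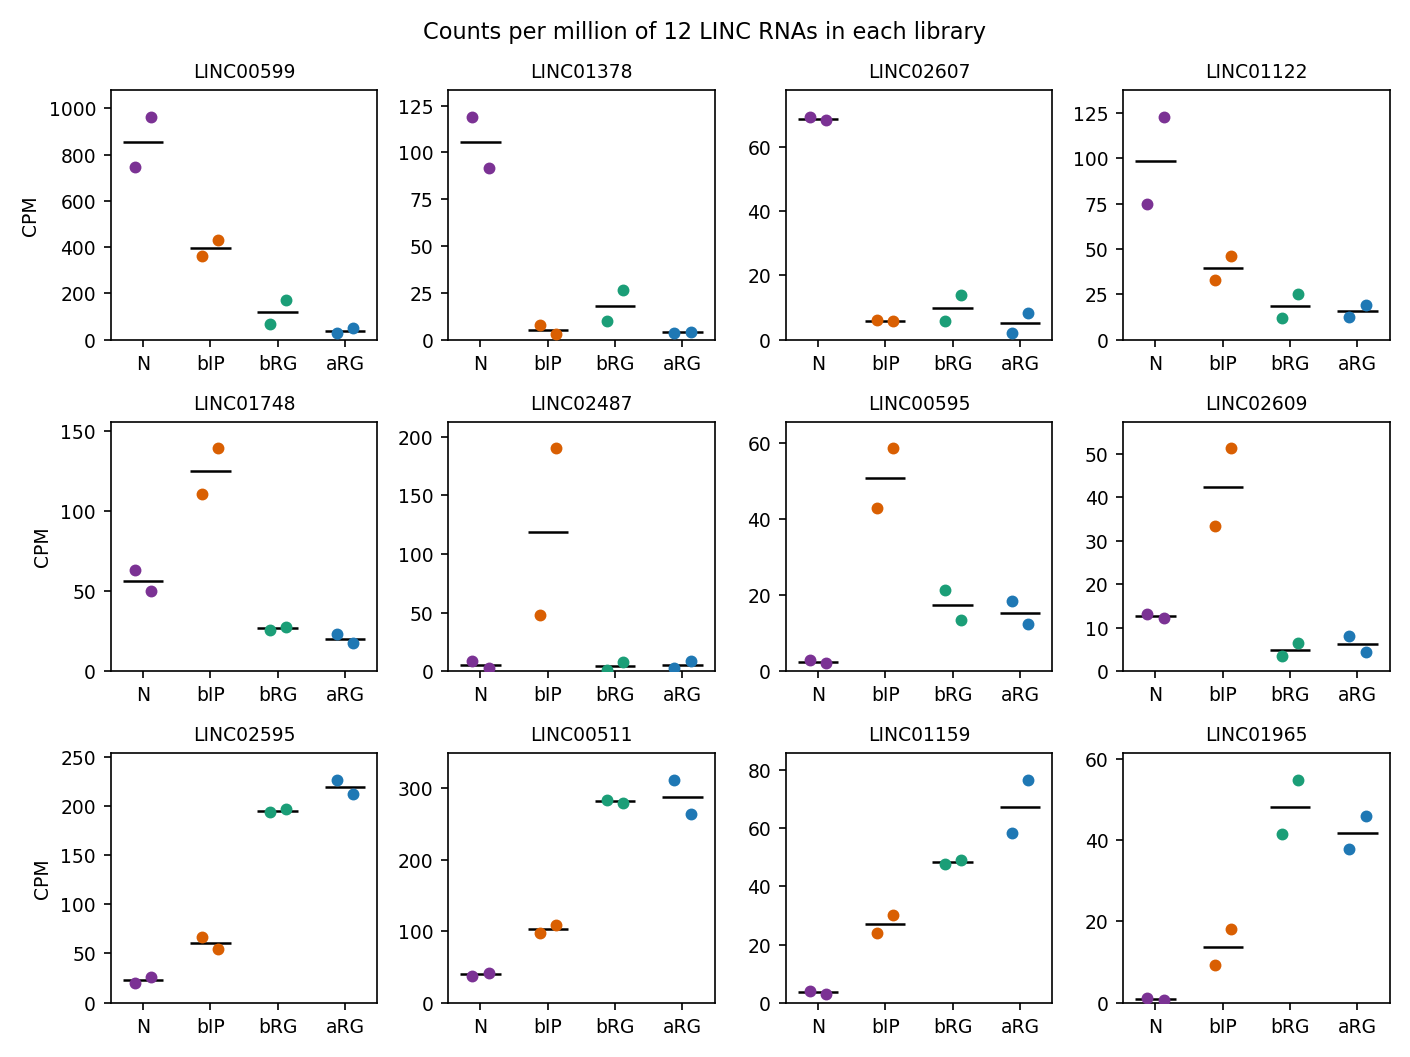
CPM (vertical axes, from 0) of 12 LINC RNAs in each library, by population. Points are libraries and bars the mean of 2. The top row holds RNAs high in N, the middle row RNAs high in bIP and the bottom row RNAs high in bRG and aRG. The bIP libraries of LINC02487 stand apart, at 48.0 and 190 CPM.

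Other RNAs were low in neurons. Both N libraries lay below all 6 others in 14 of the 65 (21.5%), where 19% of the 11198 rows had that pattern, a share near the background. In N over aRG, LINC00511, LINC01159, LINC01515, LINC01965, LINC02249 and LINC02595 were lower, as was LINC00595, whose level peaked in bIP.

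LINC00511 stood at 37.7 and 41.3 CPM in N, 96.8 and 108 CPM in bIP, 284 and 279 CPM in bRG, and 312 and 264 CPM in aRG. LINC02595 stood at 20.4 and 25.6 CPM in N, 66.5 and 54.6 CPM in bIP, 194 and 196 CPM in bRG, and 227 and 212 CPM in aRG. In both the level was graded, with bIP between radial glia and neurons and no overlap among these 3 steps. LINC00511 changed by −2.65 log2 units in N over aRG (SE 0.25, edgeR adjusted p = 3.98e-05) and −1.47 in bIP over aRG (SE 0.24, adjusted p = 0.00527). LINC02595 changed by −3.04 in N over aRG (SE 0.26, adjusted p = 2.36e-05) and by −1.83 in bIP over aRG (SE 0.25, adjusted p = 0.00214).

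Each also fell at both steps tested on their own, in bIP over bRG (LINC00511 by 1.36 and LINC02595 by 1.58) and in N over bIP (by 1.18 and 1.21). The bIP steps were sensitive to single libraries. In bIP over aRG LINC00511 had an adjusted p of 0.0567 without the first bIP library (range over 16 alternatives 4.59e-06 to 0.0567). In bIP over bRG its adjusted p was 0.142 without the first bIP library, 0.137 without the second and 0.0698 without the first bRG library (range 8.76e-05 to 0.142), and that of LINC02595 was 0.139 without the second bIP library (range 6.11e-06 to 0.139).

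LINC01159, which lies near the cortical transcription factor gene POU3F3 in human, stood at 3.96 and 3.08 CPM in N, 23.8 and 30.1 CPM in bIP, 47.8 and 49.2 CPM in bRG, and 58.2 and 76.7 CPM in aRG. The 4 populations did not overlap, and N was lowest, then bIP, bRG and aRG. The log2 fold change was −4.04 in N over aRG (SE 0.35, edgeR adjusted p = 2.2e-05), −2.73 in N over bIP (SE 0.33, adjusted p = 0.0013) and −1.31 in bIP over aRG (SE 0.31, adjusted p = 0.0429). The last of these had adjusted p-values of 0.246 and 0.143 without the first and the second bIP library and of 0.0551 and 0.292 without the first and the second aRG library (range over 16 alternatives 0.00287 to 0.292).

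POU3F3 was at 43.3 and 12.7 CPM in N, 115 and 102 CPM in bIP, 106 and 70.7 CPM in bRG, and 149 and 80.6 CPM in aRG. It fell by 1.79 on the log2 scale in N over aRG (SE 0.50, edgeR adjusted p = 0.0435), and unlike LINC01159 it overlapped among the 3 progenitor populations.

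LINC01965 stood at 1.19 and 0.553 CPM in N, 9.39 and 18.2 CPM in bIP, 41.6 and 54.8 CPM in bRG, and 37.7 and 46.0 CPM in aRG. Its levels in N came from 36 and 14 counts. It fell by 5.34 on the log2 scale in N over aRG (SE 0.51, edgeR adjusted p = 4.7e-05) and by 5.46 in N over bRG (SE 0.51, adjusted p = 6.3e-05). Between bIP and aRG its change of −1.59 (adjusted p = 0.0723) did not pass.

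LINC02249 stood at 6.30 and 1.62 CPM in N, 24.8 and 22.2 CPM in bIP, 33.1 and 32.5 CPM in bRG, and 27.1 and 30.3 CPM in aRG. It was the 1 RNA of the 65 with both bRG libraries above all others, a pattern that 2.46% of the 11198 rows had, and its change of 0.11 in bRG over aRG (SE 0.49, edgeR adjusted p = 1) did not pass. LINC01515 stood at 2.24 and 0.355 CPM in N, 3.55 and 12.3 CPM in bIP, 21.6 and 15.9 CPM in bRG, and 14.6 and 23.3 CPM in aRG. It fell by 3.51 in N over bRG (SE 0.80, adjusted p = 0.0217), and its adjusted p was 0.0612 without the second N library (range over 16 alternatives 6.64e-09 to 0.0612).

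Both aRG libraries lay above all 6 others in 4 of the 65 (8.03% of the 11198 rows had that pattern), namely LINC01159, LINC02595, LINC00311 and LINC01301. LINC00311 stood at 5.01 and 8.77 CPM in N, 16.4 and 7.69 CPM in bIP, 14.5 and 12.6 CPM in bRG, and 21.1 and 23.4 CPM in aRG, and none of its comparisons passed. Outside the 65, LINC01896 was at 0.132 and 0.237 CPM in N (4 and 6 counts) and at 8.09 to 14.5 CPM in the 4 radial glia libraries. LINC00354 was at 0.198 and 0.316 CPM in N (6 and 8 counts) and at 6.79 to 15.7 CPM in radial glia. LINC01311 was at 11.6 and 10.7 CPM in bRG, above the other 6 libraries, and LINC01572 at 12.3 and 8.63 CPM in aRG, above the other 6. LINC00032 was at 0.956 and 0.355 CPM in N and at 5.11 to 15.6 CPM in radial glia.

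**Figure D5:**
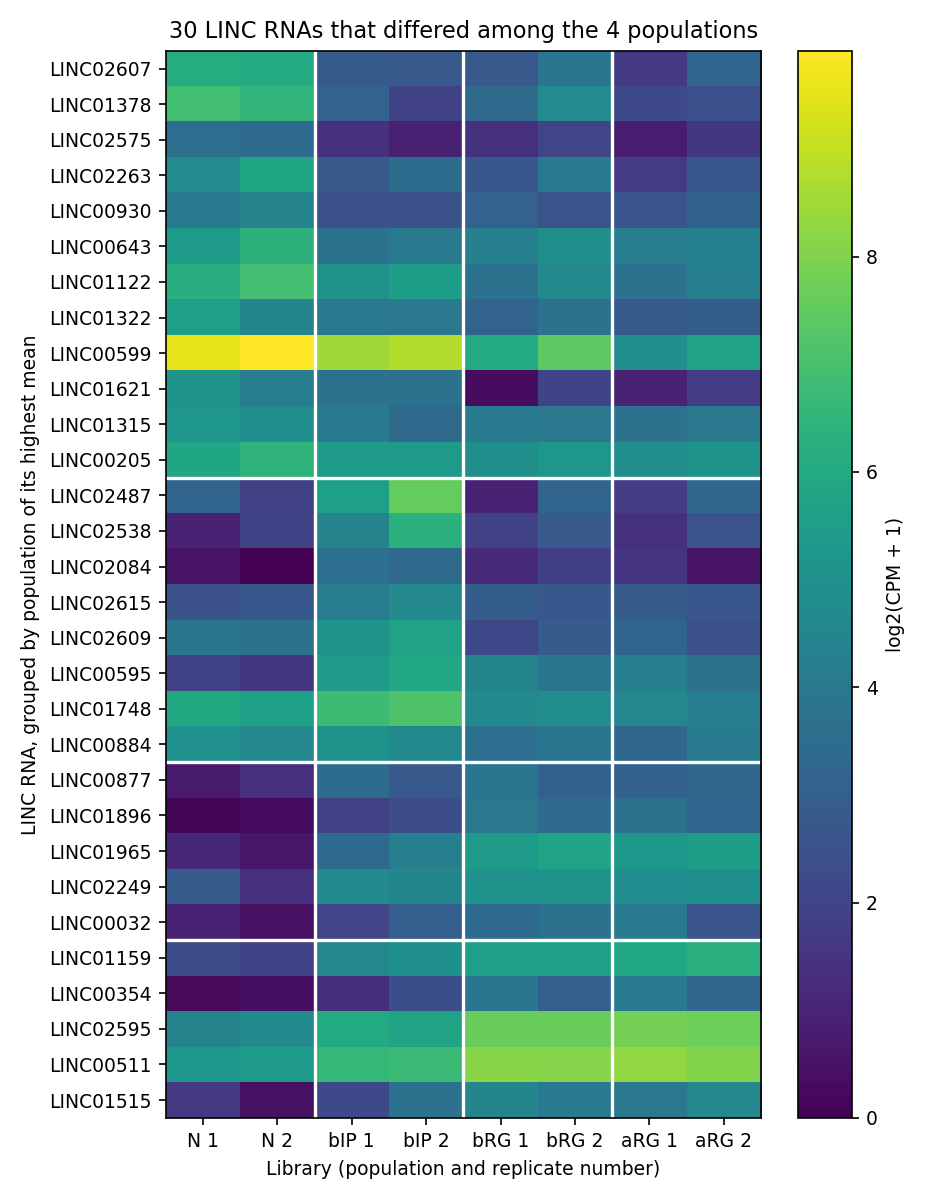
Levels of the 30 of 95 LINC RNAs that passed the test across all 4 populations, as log2(CPM + 1) (colour), in each library (columns). Rows are grouped, top to bottom, by the population of the highest mean: N (12), bIP (8), bRG (5) and aRG (5). In the bRG and aRG blocks N holds the lowest values.

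Of these 30 RNAs, the means of 4 ran in the order N, bIP, bRG, aRG from high to low and those of 5 in the reverse order, while 21 followed neither. LINC00599 and LINC01122 are of the first kind and LINC02595, LINC00511 and LINC01159 of the second. LINC01748, LINC02609, LINC00595, LINC02487 and LINC02538, with their highest level in bIP, follow neither. The comparisons of N with each kind of radial glia share the N libraries and are not independent.

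Between basal and apical radial glia no LINC RNA passed. edgeR's quasi-likelihood test called 0 of the 95. At an unadjusted p under 0.05 it had 5 of the 95, beside 642 of the 12355 rows with 10 CPM in a population. That is a similar share, so the 5 are given as a description. They were LINC01378 at a log2 fold change of 2.10, LINC02600 at 2.00, LINC00599 at 1.49, LINC02263 at 1.40 and LINC01833 at −2.71. DESeq2 called 1, LINC01378 (2.08, adjusted p = 0.0166). With no filter on low counts edgeR called 3 (LINC00599, LINC01378 and LINC02600).

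The 4 RNAs with higher levels in bRG are all ones with both N libraries above the other 6, and their bRG libraries were far apart. LINC02600 stood at 35.6 and 47.0 CPM in N, 15.2 and 11.3 CPM in bIP, 3.78 and 35.3 CPM in bRG, and 3.49 and 5.59 CPM in aRG, so that the first bRG library was near aRG and the second within reach of N. Without the first bRG library edgeR called LINC02600, LINC00599 and LINC01378 in bRG over aRG (adjusted p = 0.00989, 0.0175 and 0.0181). Over 16 alternative fits the adjusted p of LINC02600 ran from 0.00134 to 1, that of LINC00599 from 0.00047 to 1 and that of LINC01378 from 1.44e-05 to 1.

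Both N libraries lay above the other 6 in 18 of the 95 RNAs (18.9%). That pattern held in 6.63% of all rows tested and in 13.1% of the 11198 with a mean of 10 CPM over 8 libraries. Some of the 18, such as LINC02607, LINC02575 and LINC00930, entered the list through N alone, so that count describes the list. Among these 18, the second bRG library was above the first in 13, as it was in 49 of all 95. The bRG mean was above the aRG mean in 15, and no share of other rows was taken for that order. Their summed level was 1452 and 1820 CPM in N, 633 and 715 CPM in bIP, 281 and 502 CPM in bRG, and 201 and 288 CPM in aRG. The 4 deep-layer neuron markers, BCL11B, TBR1, NEUROD6 and FEZF2, none of them at 0, summed to 3247 and 3030 CPM in N, 1555 and 1668 CPM in bIP, 516 and 976 CPM in bRG, and 374 and 484 CPM in aRG. The means of BCL11B, TBR1 and NEUROD6 each ran in that order. FEZF2 did not follow it, at means of 415 CPM in N, 153 CPM in bIP, 210 CPM in bRG and 222 CPM in aRG. The part of neurons in the bRG levels of the 18 RNAs was not tested. LINC01833, the RNA nearest the threshold, stood at 0.0989 and 1.54 CPM in N, 2.51 and 3.48 CPM in bIP, 1.74 and 1.52 CPM in bRG, and 4.30 and 15.9 CPM in aRG. Its highest library, the second of aRG, is also that with the highest choroid plexus and mesenchyme sums, and their part in its level was not tested.

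Some RNAs varied little between populations. The ratio of the highest to the lowest population mean was 1.13 for LINC01560, 1.19 for LINC01551, 1.23 for LINC00632, 1.24 for LINC02210 and 1.27 for LINC00672. LINC01560 stood at 22.2 and 20.0 CPM in N, 21.0 and 22.3 CPM in bIP, 20.5 and 22.4 CPM in bRG, and 19.2 and 19.2 CPM in aRG. Its log2 fold change in N over aRG was 0.35 (SE 0.31, edgeR adjusted p = 0.582). LINC00672 was the 1 of the 95 that the study's table on the human genome also named. There it was at 72.0 and 78.6 CPM in N, 68.4 and 69.5 CPM in bIP, 59.2 and 64.5 CPM in bRG, and 61.2 and 56.5 CPM in aRG. On the chimpanzee genome it was at 68.0 and 77.6 CPM in N, 66.0 and 68.1 CPM in bIP, 57.4 and 65.5 CPM in bRG, and 58.4 and 56.8 CPM in aRG, in the same order of populations.

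Libraries numbered 1 and 2 differed in some RNAs whatever the population. Of the 95, 19 (20.0%) were higher in the library numbered 2 in all 4 populations, as were 12.1% of all rows tested and 19.9% of the 11198 with a mean of 10 CPM, and 9 (9.47%) were lower, against 10.3% and 16.7%. LINC01963 is of the first kind, at 31.4 and 44.2 CPM in N, 14.4 and 34.0 CPM in bIP, 10.3 and 26.5 CPM in bRG, and 7.71 and 30.5 CPM in aRG. LINC01551 and LINC01578 are of the second kind. MALAT1, a nuclear noncoding RNA, likewise took a larger share of counts in each library numbered 1. The labels do not say what the numbers stand for.

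The widest gaps between 2 libraries of a population were in RNAs at few counts: LINC02084 at 0.429 and 0 CPM in N, LINC01833 at a ratio of 15.6 in N and LINC01621 at 12.3 in bRG. Among pairs with a mean of at least 10 CPM, LINC02600 in bRG had the largest ratio, 9.33. LINC00574 followed at 4.77 in N (8.71 and 41.5 CPM) and 4.51 in bRG (3.89 and 17.5 CPM), and then LINC02487 in bIP at 3.97. LINC00342 stood at 114 and 261 CPM in N, 78.1 and 138 CPM in bIP, 66.1 and 131 CPM in bRG, and 76.6 and 75.5 CPM in aRG. It was higher by 1.50 in N over aRG (SE 0.41, edgeR adjusted p = 0.0382), although N overlapped both bIP and bRG.

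Below the threshold, few LINC rows passed. Most rows of any kind that passed were among the 12355 above it. These held 2894 of 3421 in N over aRG, 1908 of 2128 in N over bRG and 821 of 900 in N over bIP. All rows tested are therefore no background of like level, and the shares here are not read as low for LINC rows. Of the 1407 LINC rows tested outside the 95, 25 passed in N over aRG (1.78%, 8 higher and 17 lower), where 9.67% of all rows tested did. In N over bRG 12 passed (0.853%, beside 6.01% of all rows) and in N over bIP 7 (0.498%, beside 2.54%), all lower in N. None passed in the other 3 comparisons, where 0.00283% to 2.83% of all rows did. At an unadjusted p under 0.05 edgeR had 64 of the 1407 in bIP over aRG, 40 in bIP over bRG and 27 in bRG over aRG. Of all 35382 rows tested it had 4698, 3253 and 1318.

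Long noncoding RNAs with other names gave a comparison. Of 37 tested from a list of 40 known from brain or nuclei, 10 passed in N over aRG (27.0%), 3 higher and 7 lower, where 9.67% of all rows tested and 22.5% of those with a mean of 10 CPM passed. MIAT, a nuclear RNA of neurons and progenitors, was higher by 1.08 (SE 0.25, edgeR adjusted p = 0.0139), and NEAT1, the scaffold of paraspeckles, and SOX2-OT, transcribed across the SOX2 locus, fell by 3.65 and 3.48. Of 14 microRNA host transcripts tested, 5 passed in N over aRG (35.7%), with MIR137HG (2.73) and MIR124-2HG higher and MIR9-3HG, MIR17HG (−1.24) and MIR503HG (−2.71) lower. Of 20 hosts of small nucleolar RNAs, 1 passed (5%), SNHG14 (1.35). In bRG over aRG none of these 3 lists had a member that edgeR called, and at an unadjusted p under 0.05 there was 1 in the first list and 0 in the others.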

How the data were processed

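Bulk RNA was measured in 8 libraries of sorted chimpanzee organoid cells, by a modified Smart-seq2 protocol with 12 to 17 PCR cycles, per the labels' protocols. The authors deposited whole-number read counts per gene symbol, in 1 table on panTro6 and 1 on hg38. STAR was used, per the submitters' processing notes. The sources used here do not give its version, the annotation, or how and on which strand reads were counted. No molecular identifiers are named, so PCR copies are counted. In LINC rows of the chimpanzee table, counts of 2 (1020 values) outnumber counts of 1 (736), so mates of a pair may be counted singly, and halved counts were tried. A row with no name, with 0.00545% to 0.00771% of counts, was left out.

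Groups follow the sample titles. Levels are plain CPM from the deposited counts. Tests used edgeR 4.0.16 (filterByExpr, TMM scaling, quasi-likelihood F test, two-sided) in R 4.3.3 on all 8 libraries, with a coefficient per population, 4 residual degrees of freedom and Benjamini-Hochberg adjustment over 35382 rows in each of 6 comparisons. The SE is the log2 fold change over the square root of F. The common biological coefficient of variation was 0.629. TMM factors were 0.854 to 1.10; without them log2 ratios would be lower by 0.20 in N over bIP, 0.22 in N over aRG, 0.30 in N over bRG and 0.10 in bIP over bRG. Fits were also run on simulated data drawn with a smaller coefficient of variation than this common value. That run does not show how the fits do at the spread of these libraries. DESeq2 1.42.0, other filters and scalings, halved counts, a replicate block, other CPM limits and omission of each library were alternatives.

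The RNAs and lists were chosen with earlier results of these data known. Named RNAs are the 10 with the highest mean CPM, up to 5 with the largest rise and fall per comparison, up to 5 per population with both libraries on top, the 5 most even, those at the threshold, those with a documented role and those with the widest library ratios. LINC00574 and LINC01963, and the RNAs listed in full for a comparison, were named after their values were seen. No sequence is shown.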

Additional observations from a re-analysis of the deposited data

How the results depend on the processing

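Over 16 alternative fits, 27 of 44 named changes (22 RNAs) kept their call in all of them and none reversed. The 44 are the largest rises and falls per comparison. They include changes of LINC02487, LINC02538 and LINC02607, whose tests are not read here. They leave out some changes described as passing, such as LINC00595 in bIP over aRG and LINC00342 in N over aRG. The tally is therefore not one of the results described. Counts of RNAs past the threshold, of 95, were less stable. With no filter on low counts they were 3 in bRG over aRG, 18 in bIP over aRG, 15 in bIP over bRG and 30 in N over bIP. With DESeq2 they were 1, 20, 16 and 29. Only RNAs with a mean of 10 CPM over 8 libraries left 12 in N over bIP. All RNAs called in the main analysis were also called with no filter, with DESeq2 and with the block. Leaving out 1 library gave 0 to 3 in bRG over aRG (3 without the first bRG library), 5 to 14 in bIP over aRG (6 without the first bIP library, 5 without the second, 5 without the first aRG library), 2 to 9 in bIP over bRG (2 without the second bIP library), 8 to 23 in N over bIP (10 without the second N library, 12 and 8 without the first and the second bIP library), 20 to 31 in N over aRG, 15 to 25 in N over bRG (15 without the first bRG library) and 23 to 34 across the 4 populations. A population left with 1 library was assumed to vary like the others. The cause of these differences was not tested.

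Same-numbered libraries of 2 populations deviated together, with correlations of 0.130 to 0.263 over all rows, but the labels do not say that numbers mark a batch. With the replicate block the counts were 0 in bRG over aRG, 16 in bIP over aRG, 14 in bIP over bRG, 29 in N over bIP, 39 in N over aRG, 33 in N over bRG and 43 across the 4 populations. The human table gave no count, since it named 1 of the 95. With 2 libraries per population the SE of a change was up to 1.01 log2 units among the changes described.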
